A study of Mus musculus with 4 samples.

Results

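Sox17, Sox18, Cdh5, Abcb1a, Bcl6b, Etv2 and Tal1 are regulators and surface proteins of endothelial cells and of the haemangioblast, the mesodermal precursor of vessels and blood. They were taken from the array by symbol, every probe included, which gave 7 probes, 1 for each gene, among the 6856 probes of the table. The genes were selected on these same log ratios, with results of all 4 arrays already known, so that their values are given as a description, without a test. All 7 had a value on all 4 arrays, and none was lost to a filter.

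RNA came from the neocortex of C57BL/6 mouse embryos at embryonic day 16. Null mutants, which the labels describe as synaptically silent, were compared with normal embryos of the same background. Each of 4 two-colour arrays carried total RNA of a separate null sample, a biological replicate per the labels, in one channel and a pool of 4 control replicates in the other. Null RNA carried the dye Cy3 on replicate 1 and Cy5 on replicates 2, 3 and 4, and the source name of replicate 1 gives day 14 where its other labels give day 16. All arrays share that pool, which counts as 1 control sample, so the spread between controls is not in any error given here. The labels name no Cre line or treatment, and neither the sex nor the number of embryos behind a sample.

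The value of a probe was the authors' log ratio of both channels, taken as log2, so that 1 unit is a 2-fold difference between channels. Which channel was the numerator is not given in the sources used here. All signs are therefore as deposited, and a negative value cannot be read as lower or as higher in the null. Replicates 2 to 4 ran the same way, and their mean and SD are given below. If the same channel was the numerator on every array, whichever it was, the sign of replicate 1 has to be turned before it is set beside them. If the numerator instead followed the sample, null or pool, replicate 1 can be set beside them as deposited. The arrays give ratios and no levels, so that neither the neocortical label nor the presence of endothelial cells could be checked by the level of a marker. In whole tissue, fewer cells of a type and less RNA per cell cannot be told apart.

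Endothelial cells and the first blood cells arise from shared mesodermal precursors. The ETS factor Etv2 starts the endothelial and blood programmes there, and the bHLH factor Tal1, also called Scl, directs cells towards blood. Later the SOX factors Sox17 and Sox18 support arterial and lymphatic fate, and VE-cadherin, encoded by Cdh5, holds endothelial cells together. In the embryonic cortex, vessels grow inwards from the surface and acquire barrier properties, among them the efflux pump encoded by Abcb1a.

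On replicates 2 to 4, Sox17, Sox18, Cdh5, Abcb1a, Bcl6b and Etv2 were negative on every array, and Tal1 was positive on every array. Among all 5720 probes measured on these arrays, 17.3% were negative on each of the 3 and 16.3% were positive on each. Since the genes were picked with these ratios known, nothing is read from the comparison of 6 of 7 with that background. The median over the 7 means was -0.48, against -0.016 over all probes. On replicate 1 as deposited, 5 of the 7 were positive, while Cdh5 and Tal1 were negative. A mean beyond 1 in size on replicates 2 to 4 was reached by Sox17 alone among the 7, and by 0.944% of all probes.

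**Figure D1:**
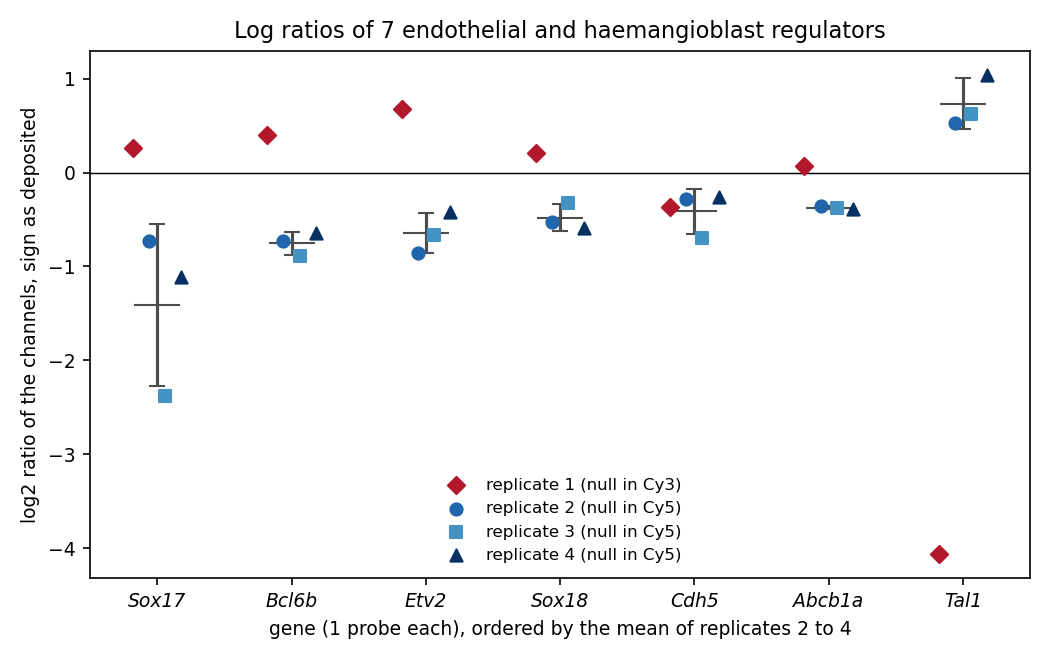
Log2 ratio of each of the 7 genes on each array (vertical axis, sign as deposited), with genes on the horizontal axis ordered by their mean on replicates 2 to 4. Horizontal bars are that mean and error bars its SD (n = 3). The 6 genes on the left lie below 0 on replicates 2 to 4, Tal1 lies above 0 there, and the replicate 1 value of Tal1, at -4.06, stands apart from every other point.

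Among the transcription factors of mature endothelium, Sox17 (probe 4317), an SRY-related factor of arterial endothelium and of endoderm, had log ratios of -0.73, -2.38 and -1.11 on replicates 2, 3 and 4, and 0.26 on replicate 1. All 3 arrays of the same orientation were below 0, replicate 3 was by far the lowest, and replicate 1 had the other sign. The mean was -1.41 ± 0.86 (SD, n = 3), or 2.65-fold in size, and only 13 of the 5720 probes had a lower mean. Without replicate 3 the mean was -0.92. The spread belonged to the widest on the arrays, since 95.6% of probes had a smaller SD over the same 3 arrays.

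Replicate 3 was also the widest array as a whole. The SD over all probes was 0.63 on replicate 3, against 0.43 on replicate 2 and 0.40 on replicate 4. In units of each array's SD, Sox17 lay at -1.70, -3.76 and -2.80 on replicates 2, 3 and 4. Replicate 3 thus remained the lowest in these units, and replicate 2 the least extreme. After each array was centred and brought to the same spread, the mean of Sox17 was -1.30. Counted by rank, 253 probes lay below Sox17 on replicate 2, 30 on replicate 3 and 45 on replicate 4.

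Sox18 (probe 2948) belongs to the same SOX subgroup as Sox17 and is known for its part in vessel and lymphatic development. It had -0.53, -0.32 and -0.59 on replicates 2, 3 and 4, and 0.21 on replicate 1. The 3 arrays lay close to each other and replicate 1 lay on the other side of 0. The mean was -0.48 ± 0.14 (SD, n = 3), 1.39-fold in size. Unlike Sox17, Sox18 was the least extreme of the 3 on replicate 3, where 24.1% of probes were lower, against 8.25% on replicate 2 and 4.46% on replicate 4. Of replicates 2 to 4, the array on which Sox17 was lowest was therefore the array on which Sox18 was nearest to 0.

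Bcl6b (probe 1531), a transcriptional repressor with a BTB domain and zinc fingers that is related to Bcl6, had -0.73, -0.88 and -0.65 on replicates 2, 3 and 4. Replicate 1 had 0.40. The values of replicates 2 to 4 lay within 0.24 of each other. The mean of -0.75 ± 0.12 (SD, n = 3), 1.69-fold in size, was the second lowest of the 7, and 64 probes had a lower mean. On each of the 3 arrays between 3.68% and 4.39% of probes were lower, so that Bcl6b held nearly the same rank throughout. On replicate 2 its value equalled that of Sox17 to 2 decimals.

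Of the genes that act in the junction and the barrier, Cdh5 (probe 3417), the cadherin of endothelial adherens junctions, had -0.29, -0.69 and -0.26 on replicates 2, 3 and 4. Replicate 1 had -0.36, and Cdh5 was the only gene of the 7 with the same sign as deposited on all 4 arrays, as 7.74% of the 5687 probes measured on all arrays were negative on each. The mean on replicates 2 to 4 was -0.41 ± 0.24 (SD, n = 3), 1.33-fold in size, and -0.27 without replicate 3. Replicate 3 was the low one, while replicates 2 and 4 differed by little. If replicate 1 is turned, Cdh5 is the only one of the 7 whose sign differs between the arrays, and its mean over 4 arrays is -0.22 ± 0.44 (SD, n = 4).

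Abcb1a (probe 4087), a P-glycoprotein that pumps drugs and lipids out of brain endothelium, had -0.35, -0.38 and -0.39 on replicates 2, 3 and 4, and 0.07 on replicate 1. Its values on replicates 2 to 4 were nearly equal, at a mean of -0.37 ± 0.018 (SD, n = 3), 1.29-fold in size. Only 0.332% of probes had a smaller SD over these arrays. The size of the ratio was modest, since 8.08% of all probes had a lower mean. Replicate 1 was near 0, so that either sign of that array leaves it apart from the other 3.

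The haemangioblast factors stood on opposite sides of 0. Etv2 (probe 1868), the ETS factor at the start of the endothelial and blood lineages, had -0.85, -0.66 and -0.42 on replicates 2, 3 and 4. Replicate 1 had 0.68, and only 3.18% of the probes there were higher. The mean on replicates 2 to 4 was -0.65 ± 0.22 (SD, n = 3), 1.56-fold in size. With replicate 1 turned, the size on that array falls within the range of the other 3, and the mean over 4 arrays is -0.65 ± 0.18 (SD, n = 4). Etv2 was the lowest of the 7 on replicate 2, whereas Sox17 was the lowest on replicates 3 and 4.

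Tal1 (probe 4359), the bHLH factor required for blood formation and for remodelling of yolk sac vessels, had 0.53, 0.63 and 1.04 on replicates 2, 3 and 4. On replicate 1 it had -4.06, which is 16.7-fold in size. The mean on replicates 2 to 4 was 0.73 ± 0.27 (SD, n = 3), 1.66-fold in size, with 72 probes higher. Replicate 1 differed from the others in size far more than they differed from each other. In units of that array's SD it lay at -8.41, only 2 of 5814 probes were lower there, and 3 probes on that array lay beyond 4 in size. With that array turned, Tal1 is positive on all 4 arrays with a mean of 1.56 ± 1.68 (SD, n = 4). As deposited, the mean over 4 arrays takes the opposite sign, at -0.47 ± 2.41 (SD, n = 4). Both means of 4 arrays rest on replicate 1.

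**Figure D2:**
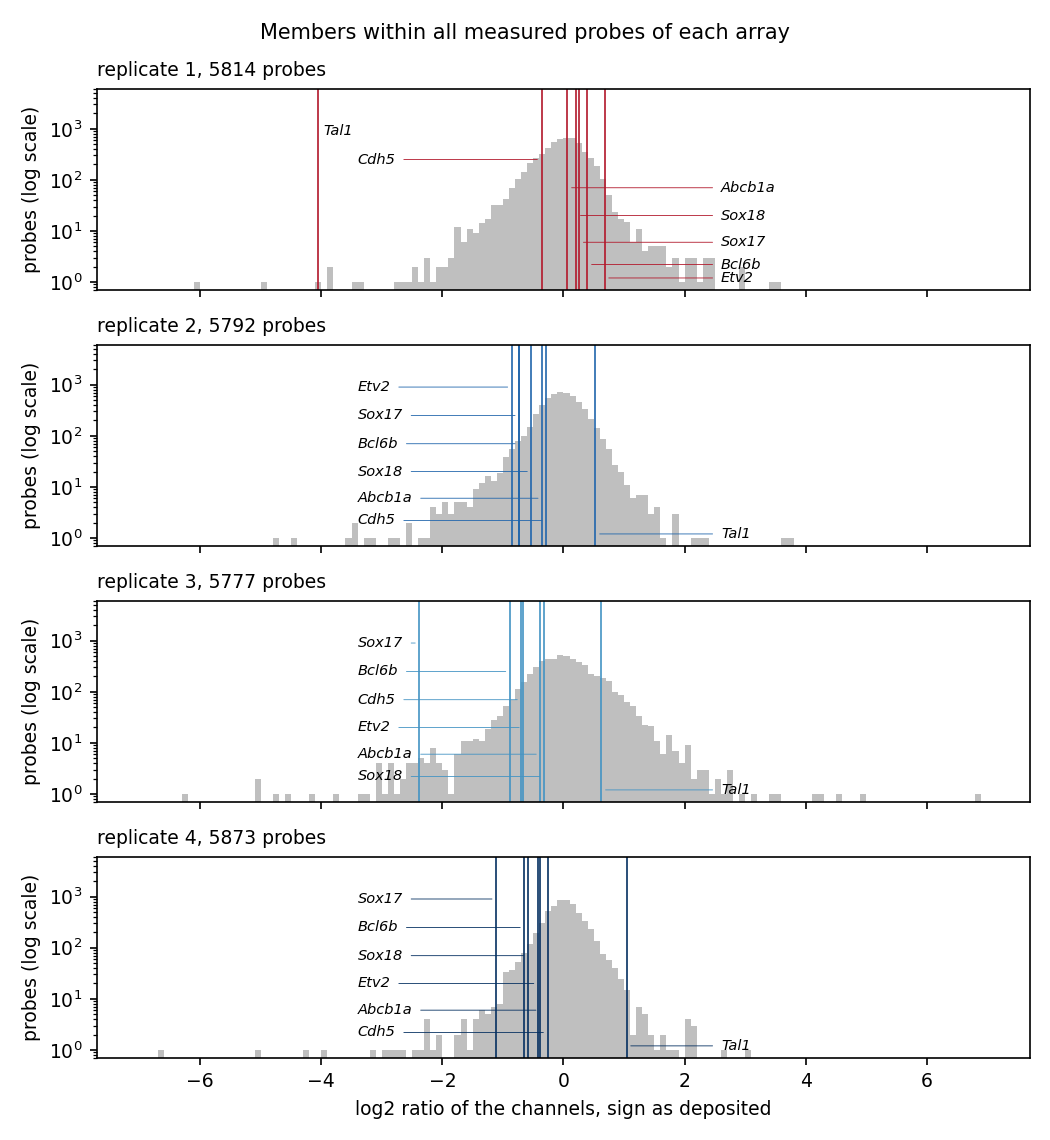
Distribution of the log2 ratios of all measured probes on each of the 4 arrays (horizontal axis, sign as deposited; vertical axis, number of probes on a log scale, grey), with a line for each of the 7 genes. On replicates 2 to 4 the lines of 6 genes lie left of 0 and that of Tal1 right of 0. On replicate 1 Tal1 lies at -4.06 in the sparse left tail, with only 2 probes lower.

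Promoter windows were held for 3 of the 7 genes in the RefSeq table of GRCm38.p6, and each covers 250 bases before and 50 after a transcription start. These 3 are shown, and they include genes of both signs on replicates 2 to 4, with Etv2 and Abcb1a negative and Tal1 positive. Letters run 5′ to 3′ on the strand of the gene, and capitals mark the core of ETS binding sites, GGAA, on either strand, the other strand appearing as TTCC.
Etv2, chr7:30635803-30636102, minus strand: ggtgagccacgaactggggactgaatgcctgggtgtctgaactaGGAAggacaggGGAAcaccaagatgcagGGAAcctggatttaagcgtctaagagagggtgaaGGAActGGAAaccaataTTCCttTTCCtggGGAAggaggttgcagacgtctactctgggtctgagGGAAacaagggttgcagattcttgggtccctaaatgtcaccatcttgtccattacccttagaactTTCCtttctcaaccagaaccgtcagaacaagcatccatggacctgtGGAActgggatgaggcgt
Abcb1a, chr5:8566841-8567140, plus strand: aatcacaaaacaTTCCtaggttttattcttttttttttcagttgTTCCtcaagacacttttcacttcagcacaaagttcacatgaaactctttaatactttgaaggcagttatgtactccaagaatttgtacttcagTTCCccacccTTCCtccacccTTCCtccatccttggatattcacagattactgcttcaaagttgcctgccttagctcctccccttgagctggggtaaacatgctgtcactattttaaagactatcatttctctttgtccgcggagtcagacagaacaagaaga
Tal1, chr4:115056176-115056475, plus strand: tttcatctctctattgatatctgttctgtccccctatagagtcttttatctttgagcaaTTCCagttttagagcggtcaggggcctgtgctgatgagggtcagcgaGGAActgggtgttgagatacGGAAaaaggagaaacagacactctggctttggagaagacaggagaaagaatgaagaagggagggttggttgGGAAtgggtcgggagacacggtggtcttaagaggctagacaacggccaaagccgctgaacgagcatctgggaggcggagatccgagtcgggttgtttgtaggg

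The Etv2 window held 11 matches to GGAA, the Abcb1a window 5 and the Tal1 window 4. Of 32544 promoter windows of the same length, 96.0% held at least a single match, the median was 3, and only 0.1% held more than the Etv2 window. More matches than in Abcb1a were held by 15.7%, and more than in Tal1 by 28.6%. A second Tal1 start, at chr4:115057561-115057860 and not printed, also had 4. The SOX core ACAAT, searched on both strands and found in 30.8% of all windows, had no match in any of these 4 windows. The site GATAA, found in 25.3% of windows on either strand, had 1 match in the printed Tal1 window and none in the others. The E-box CANNTG, its own reverse complement and found in 72.3% of windows, had 2 matches in Abcb1a, 1 in the printed Tal1 window and none in Etv2 or at the second Tal1 start. ACAAT and an E-box can share letters, as in ACAATTG, and otherwise none of these motifs contains another. GC content was 50.7% in Etv2 and in the printed Tal1 window and 40.3% in Abcb1a, against a median of 53.0% over all windows. A match describes letters only and is no measured binding site.

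Ordered by the mean on replicates 2 to 4, Sox17 was lowest, followed by Bcl6b, Etv2, Sox18, Cdh5 and Abcb1a, with Tal1 last. The ranges over the 3 arrays overlapped for each pair of neighbours among the first 6. Bcl6b exceeded Sox17 by 0.65 ± 0.76 on average (SD, n = 3), and by less than 0.01 on replicate 2. Between Cdh5 and Abcb1a the difference was 0.04 ± 0.24. Farther apart in the order, some ranges did not overlap. Sox17 lay wholly below Sox18, Cdh5 and Abcb1a, Bcl6b lay wholly below Sox18 and Abcb1a, and Etv2 lay wholly below Abcb1a. The other pairs among these 6 overlapped. Tal1 exceeded Abcb1a by 0.88, 1.01 and 1.43 on replicates 2, 3 and 4, a mean difference of 1.10 ± 0.29, and their ranges did not overlap.

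The 6 genes other than Tal1 lay between -0.85 and -0.29 on replicate 2, between -2.38 and -0.32 on replicate 3, and between -1.11 and -0.26 on replicate 4. On replicate 1 they lay between -0.36 and 0.68 as deposited. Their medians were -0.63, -0.68 and -0.50 on replicates 2, 3 and 4, and 0.24 on replicate 1. The medians of replicates 2 to 4 were similar, but these genes were picked with the ratios known. Nothing on agreement between the arrays is therefore read from them. Replicate 1, with swapped dyes and a source name that gives day 14, had a median smaller in size and of the other sign as deposited.

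Turning replicate 1 gives 6 of the 7 a single sign on all 4 arrays, with Cdh5 as the exception. Of these 6, 5 were negative on replicates 2 to 4 and positive on replicate 1, as were 9.58% of all probes, and Tal1 had the reverse, as had 8.53%. Leaving replicate 1 as deposited gives a single sign to Cdh5 alone. Over all 5687 probes measured on all 4 arrays, a single sign was held by 18.1% with replicate 1 turned and by 15.5% as deposited. Across probes, which are not independent replicates, Pearson's r of replicate 1 as deposited was -0.019 with replicate 2, 0.08 with replicate 3 and -0.12 with replicate 4. Between replicates 2 and 3 and between 2 and 4, r was 0.24 and 0.23, and between 3 and 4 it was -0.0022. The arrays share little over all probes in either orientation.

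**Figure D3:**
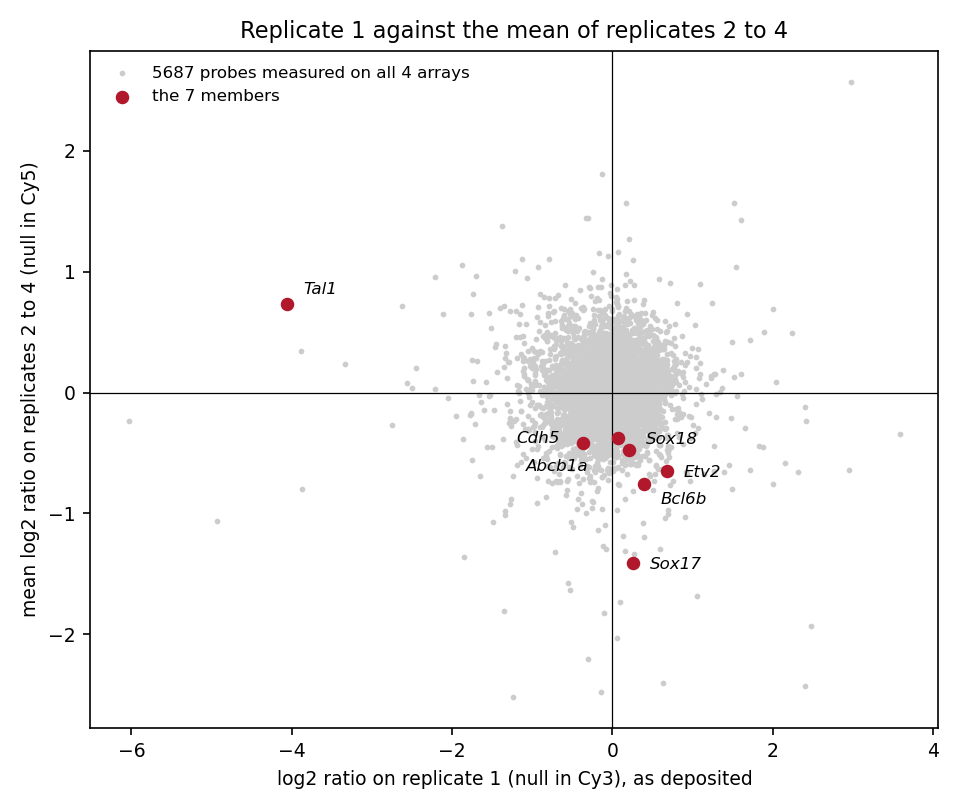
Log2 ratio on replicate 1 as deposited (horizontal axis) against the mean on replicates 2 to 4 (vertical axis) for 5687 probes (grey), with the 7 genes in red. Sox17, Sox18, Bcl6b, Etv2 and Abcb1a lie in the lower right quadrant, Cdh5 in the lower left, and Tal1 in the upper left at -4.06 and 0.73.

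Likeness was measured as the Euclidean distance over the 4 arrays as deposited, among 5214 probes with a single symbol. The probes nearest to Sox17 were those of Rab17, a small GTPase of epithelial trafficking, at 0.67, of Rnf31, a ubiquitin ligase subunit, at 0.69, and of Ptgis, the prostacyclin synthase, at 0.84. Each shared the deep value of Sox17 on replicate 3, with -2.17, -2.55 and -1.70. The probes nearest to Bcl6b were those of Ap4m1, an adaptor of vesicle coats, at 0.35, of Hba-x, an embryonic alpha-type globin, at 0.36, and of Cat, catalase, at 0.36. Hba-x had -0.60, -0.71 and -0.93 on replicates 2, 3 and 4, and 0.37 on replicate 1. The probe nearest to Tal1 was that of the sulfate transporter Slc26a2, at 0.92, which had -3.88 on replicate 1, and the next, of the cytokine receptor subunit Il6st and the milk casein Csn1s1, lay at 1.90 and 2.08. Nearness over 4 values is a description of these arrays only.

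The other genes of endothelium, of blood and of the families of these 7 genes were described from 14 lists, which leave out the 7 genes themselves. Of 308 distinct list genes measured, 19 stood in several lists, so that counts of different lists are not all separate observations. Ratios were averaged by symbol and fitted with limma over 5529 genes and unnamed probes. By the adjusted threshold of 0.05, 0 were called on replicates 2 to 4 (0.00%), in the lists as elsewhere. The single-probe fit likewise called 0 of 5720. A negative mean was held by 52.5% of them. At an unadjusted p under 0.05, limma listed 9.69% of genes, of which 4.07% of all genes tested were negative and 5.62% positive. The smallest adjusted p of any list gene was 0.428. In the text that follows, a gene at an unadjusted p under 0.05 has thus not passed the test.

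Of the endothelial identity genes, 44 of 74 were measured, 26 of them negative, with a median of -0.11 against -0.019 over all genes. The median was -0.070 without replicate 3 and -0.061 without replicate 4. At an unadjusted p under 0.05, 3 were negative and 2 positive. Cd93, a surface glycoprotein of endothelial adhesion, had -1.03 ± 0.70 (SD, n = 3), Itm2a, a membrane protein enriched in brain vessels, had -0.47 ± 0.23, and the angiopoietin receptor relative Tie1 had -0.44 ± 0.31. On the other side the arterial Notch ligand Dll4 had 0.68 ± 0.45 and Esm1 had 0.47 ± 0.38. Like Sox17, Cd93 had its lowest value on replicate 3, at -1.84, and the opposite sign on replicate 1, at 0.90. Replicate 3 was the widest array, and 9.58% of the probes measured on all arrays had these signs. Nothing is therefore read from the likeness.

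Pecam1, Kdr, Tek and Cldn5, widely used endothelial markers, did not hold a single sign on replicates 2 to 4. Of all probes, 17.3% were negative on each of these arrays and 16.3% were positive on each. Sox17, Sox18 and Cdh5 did hold 1 sign, but were picked with these ratios known, so nothing is read from the difference. Pecam1, an adhesion molecule of endothelial junctions, had 0.42, -0.54 and 0.62 on replicates 2, 3 and 4. Kdr, the main VEGF receptor, had 0.13, 0.73 and -0.26. Tek, the angiopoietin receptor, had -0.17, 0.14 and -0.36, and the tight junction protein Cldn5 had -0.33, -0.49 and 0.28. Each of these 4 markers had values of both signs, and each SD exceeded the size of its mean. Tie1 was negative on all 3 arrays, at -0.20, -0.80 and -0.33, and at -0.64 on replicate 1.

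Among blood-brain barrier genes, 13 of 22 measured (48 fixed) were negative, with a median of -0.07, and the 3 genes at an unadjusted p under 0.05 were all negative. Without replicate 4 the median was -0.044. Abcg2, the breast cancer resistance protein and another efflux pump, had -0.50 ± 0.11 (SD, n = 3), the organic anion pump Abcc5 had -0.48 ± 0.15, and the organic anion transporter Slc22a8 had -0.79 ± 0.74. Abcg2 had -0.37, -0.57 and -0.56 on replicates 2, 3 and 4 and 0.69 on replicate 1. Like Abcb1a, it kept a single sign on the 3 arrays with a narrow spread, and its replicate 1 value was farther from 0. The wider family of ABC transporters had 16 of 23 measured genes negative and a median of -0.06, which was 0.027 without replicate 3 and -0.15 without replicate 4. Another of its genes at an unadjusted p under 0.05, the lipid transporter relative Abca8b, had -0.51 ± 0.17, and none was positive at that mark. The closest relative of Abcb1a in the mouse, Abcb1b, had no value on replicates 2 to 4.

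In the list of vascular growth factors and receptors, 20 of 34 measured genes were negative and the median was -0.04, or -0.016 without replicate 3 and -0.080 without replicate 4. Only 1 gene had an unadjusted p under 0.05, namely Slit2, a guidance ligand that also acts on vessels, with 0.86 ± 0.16 (SD, n = 3). Pdgfa, a growth factor that recruits mesenchymal cells, had -0.46 ± 0.54, and Ndp, the ligand norrin of retinal and brain vessels, had 0.43 ± 0.50. Both had a wide spread and gave neither sign on every array.

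Of the SOX factors, 12 of 14 measured genes were negative, with a median of -0.33, and 4 of them, all negative, were at an unadjusted p under 0.05. Sox3, a factor of neural progenitors, had -0.62 ± 0.21 (SD, n = 3), Sox12 had -0.46 ± 0.19, and Sox15 had -0.39 ± 0.11. Sox7, another member of the subgroup of Sox17 and Sox18, had 0.24, -0.40 and -0.32 on replicates 2, 3 and 4 and -0.40 on replicate 1. Sox7 thus did not hold a single sign. Its relatives Sox17 and Sox18 did, but were picked with these ratios known, so nothing is read from the difference. The median of the SOX factors was nearer to 0 without replicate 4, at -0.11.

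ETS factors had 14 of 16 measured genes negative and a median of -0.25, with 2 negative and 0 positive at an unadjusted p under 0.05. Etv5, a factor downstream of FGF signals, had -0.53 ± 0.33 (SD, n = 3), and Etv6, a repressor with a part in blood formation, had -0.37 ± 0.14. Fli1, an endothelial and megakaryocytic factor, had 0.01, -0.54 and -0.40 on replicates 2, 3 and 4. Ets1, an endothelial and lymphoid factor, had -0.41, -4.54 and 1.06, so that its mean of -1.30 rested on replicate 3, as did that of Ets2, with -0.14, -1.38 and -0.20. Etv1 and Etv4, the relatives of Etv5, had means of -0.20 ± 0.24 and -0.28 ± 0.31. Etv2, at an SD of 0.22, varied less from array to array than Ets1, at 2.91, and more than Etv6.

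BTB zinc finger repressors, the family of Bcl6b, had 13 of 14 measured genes negative and a median of -0.17. At an unadjusted p under 0.05 stood 1 gene, Zbtb16, also called PLZF, whose mean was -0.91 ± 0.33 (SD, n = 3). Bcl6 itself, the nearest relative of Bcl6b, had 0.22, -0.61 and 0.27 on replicates 2, 3 and 4. Bcl6b had 1 sign on these arrays where Bcl6 had both. Bcl6b was picked with these ratios known, so nothing is read from the difference between them, which was not tested. Zbtb33 and Zbtb14 had -0.30 ± 0.11 and -0.28 ± 0.09.

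VE-cadherin partners and classical cadherins, the list closest to Cdh5, had 14 of 24 measured genes positive and a median of 0.11, or 0.052 without replicate 4. Only the cadherin Cdh20 had an unadjusted p under 0.05, and its mean was 0.43 ± 0.18 (SD, n = 3), with Cdh9 at 0.34 ± 0.16. The catenins that bind VE-cadherin gave -0.17 ± 0.44 for beta-catenin, Ctnnb1, and 0.15 ± 0.19 for p120, Ctnnd1. Plakoglobin, Jup, had -0.42 ± 0.44, and N-cadherin, Cdh2, had 0.19 ± 0.24. The median of this list, which pools the partners with other cadherins, had the sign opposite to that of Cdh5. Partners gave both signs, as with beta-catenin and p120, so the median does not describe the partners alone.

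Blood and haemangioblast transcription factors had 22 of 37 measured genes negative and a median of -0.07. Those at an unadjusted p under 0.05 were 3 negative and 1 positive. They were Meis1, a homeobox factor of blood stem cells, at -0.60 ± 0.38 (SD, n = 3), the cytokine-activated factor Stat5a at -0.54 ± 0.37, Etv6, and the LIM domain-binding protein Ldb2 at 0.49 ± 0.24. The proteins that form a complex with Tal1 gave values of either sign. Gata1, the erythroid GATA factor, had 0.29, 0.22 and 0.25 on replicates 2, 3 and 4, with a mean of 0.25 ± 0.04, and -0.10 on replicate 1. It shared the signs of Tal1 on all 4 arrays, at a smaller size, and 8.53% of the probes measured on all arrays had these signs. Lmo2, the bridging LIM protein of the complex, had 0.13, 0.64 and -0.45, and its partner Ldb1 had -0.50, -0.45 and 0.19. Gata2, a GATA factor of blood stem cells, had -0.42, 1.18 and -0.36, and Gata3 had a mean of 0.014 ± 0.33. Lyl1, the closest relative of Tal1, and its dimer partner Tcf3 had no value on replicates 2 to 4. The median of this list was -0.12 without replicate 3 and took the opposite sign without replicate 4, at 0.03.

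Blood progenitor and red cell genes had 14 of 26 measured genes positive and a median of 0.011, with 3 negative and 1 positive at an unadjusted p under 0.05. That median was -0.052, -0.014 and 0.0015 without replicates 2, 3 and 4 in turn. The globin Hba-x had -0.74 ± 0.17 (SD, n = 3), Slc4a1, which exchanges anions across the red cell membrane, had -0.49 ± 0.15, and the interleukin receptor chain Il3ra had 0.68 ± 0.33. Hba-a1, an adult alpha globin, had 0.06, 0.28 and -0.42. Neither Hba-x nor Slc4a1 shared the positive sign of Tal1 on replicates 2 to 4. In the whole list, 4 of 26 genes were negative and 3 positive on each of these arrays. Of all probes, 17.3% were negative on each and 16.3% were positive on each.

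**Figure D4:**
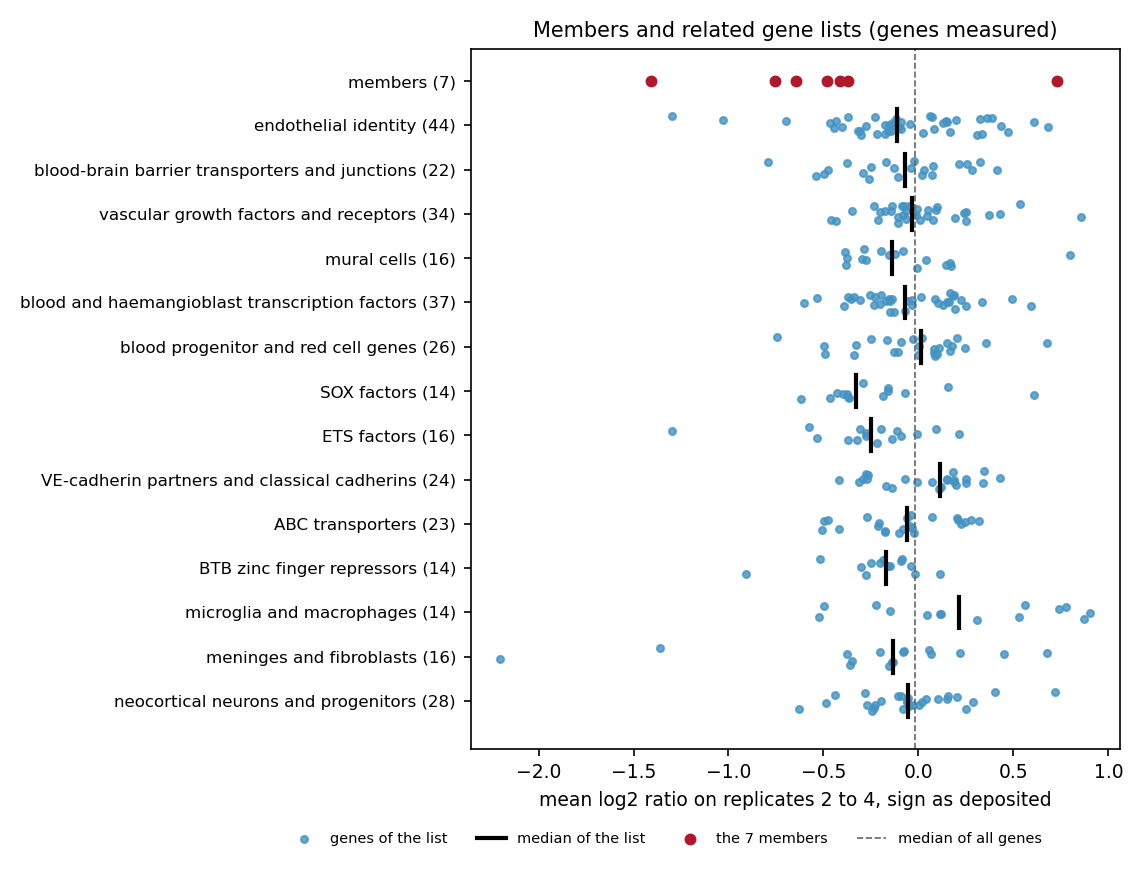
Mean log2 ratio on replicates 2 to 4 (horizontal axis, sign as deposited) of each measured gene of 14 lists (blue points, number measured in brackets), with the list median as a black bar, the 7 genes in red and the median of all genes as a dashed line. List medians lie between -0.33 for SOX factors and 0.21 for microglia and macrophages, and 6 of the 7 genes lie below every list median.

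Mural cells, the pericytes and smooth muscle cells around vessels, had 11 of 16 measured genes negative and a median of -0.14, which was -0.086 without replicate 2 and -0.054 without replicate 4. Ednrb, an endothelin receptor, had 0.80 ± 0.21 (SD, n = 3), the forkhead factor Foxc1 had -0.38 ± 0.12, and the muscle filament protein Des had -0.38 ± 0.35. Only Ednrb and Foxc1 were at an unadjusted p under 0.05. Meninges and fibroblasts, which the dissection could hold with the surface vessels, had 11 of 16 negative and a median of -0.14 (-0.067 without replicate 2), with 3 negative and 2 positive at that mark. They included Ptgds at -1.36 ± 0.62, Col6a1 at -2.20 ± 1.46 and Col5a1 at 0.68 ± 0.56.

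Microglia and macrophages had 10 of 14 measured genes positive and a median of 0.21, with 5 positive and 0 negative at an unadjusted p under 0.05. Lyz1, Laptm5 and Ctss had 0.74 ± 0.03, 0.87 ± 0.36 and 0.90 ± 0.60 (SD, n = 3). On replicate 1 as deposited, Lyz1 and Ctss were also positive, at 0.81 and 0.72, and Laptm5 was negative, at -0.29. The 4 negative genes of the list were Cd14 at -0.52 ± 0.98, C1qb at -0.49 ± 0.69, Itgam at -0.22 ± 0.40 and Cd52 at -0.15 ± 0.37. Neocortical neurons and progenitors had 17 of 28 measured genes negative and a median of -0.06 (-0.014 without replicate 4), with Gad2 at 0.72 ± 0.22, Emx1 at -0.63 ± 0.37 and Cux1 at -0.49 ± 0.22. These lists were measured beside the 7 genes on the same arrays, and their part in the values of the 7 genes was not tested.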

How the data were processed

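The data were a table of a single value for each probe and array. The values were log ratios processed by the authors and deposited, and were taken as log2. They reach sizes too large for log10, but this does not settle the base between log2 and the natural log. Every fold size given here rests on log2. The log base, background correction, normalization and numerator are not given in the labels used here, and per-channel signals were not used. A total of 0 columns were left unmapped, and the array number limits the precision.

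Probes were named from the platform annotation through Entrez IDs (6250 matched to RefSeq of GRCm38.p6, 0 symbols changed). Members and lists were chosen with earlier results of these data known. Mean log ratios of replicates 2 to 4 were tested against 0 with limma 3.58.1 (lmFit, then eBayes; R 4.3.3), two-sided, with Benjamini-Hochberg adjustment over all probes, threshold 0.05. On simulated data for replicates 2 to 4 (5720 probes), the fit found 50.8% of changes of 2-fold and 96.5% of those of 4-fold, and 5.44% of its calls were false. The simulated noise was normal and independent between arrays, and each change was equal on every array. Its variances were drawn from the prior that limma fitted to these arrays, so that assumption of the fit was met by construction. The number of changed probes was fixed in advance, and the rates depend on it. Unequal array widths and extreme values on a single array were not simulated, so these rates need not hold for the real arrays.

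Named list genes were the 3 with the smallest p in each list and a fixed set of paralogs and partners of the members. Other genes named, Hba-a1 among them, were chosen after their values were seen. Genes most like a member were the 3 nearest, for the 3 members with the largest mean in size. Alternatives tried were replicate 1 added with either sign, a dye term, centring, scale, missing values, averaging, a robust prior, array weights and leaving out replicates. Replicates 2 to 4 have a single dye orientation, so dye and genotype cannot be told apart there. The mutated gene and its probe are not reported here. Column medians lay between -0.031 and 0.0044.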

Additional observations from a re-analysis of the deposited data

Results flagged for a closer look

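Among 4 arrays, the gap of an end value to its nearest neighbour was divided by the whole range and set against Dixon's critical value. Of 160 such ratios, from 80 genes and list medians with both signs of replicate 1, 10 lay above it. Chance flags about 1 in 20 unselected groups, but that rate does not apply here. The members were picked with these ratios known, and many list genes were named for a small p on replicates 2 to 4. Each gene or median also entered with both signs of replicate 1, so the ratios are not independent. Nothing is therefore read from the count, and the ratios below are given as a description. For Tal1 replicate 1 stood apart as deposited (0.90) and turned (0.85). For Abcb1a replicate 1 also stood apart, as deposited (0.92) and turned (0.89), because the other 3 arrays were nearly equal. Sox7 stood apart as deposited (0.88), through replicate 2, and Abcg2 as deposited (0.84), through replicate 1. Ets2 stood apart on replicate 3, as deposited (0.87) and turned (0.84). With replicate 1 turned, Zbtb33 (0.86) and Lyz1 (0.96) stood apart on that array.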

How the results depend on the processing

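Past the adjusted threshold, limma called 2 probes with replicate 1 added as deposited, 1 with it turned and a dye term, 1 with a robust prior and 3 with array weights, against 0 otherwise. Array weights raised the number at an unadjusted p under 0.05 from 553 to 1067, and leaving out a replicate gave 236 to 621. All 7 members kept the sign of their mean under 7 alternatives, except Tal1 with replicate 1 as deposited, at -0.47. Each member had a single sign on the 3 arrays of the same orientation, so leaving out any of these could not change it. Centring and scaling could not either, because the array medians were far smaller in size than any member's value there. Only adding replicate 1 could have changed a sign. The members were also picked with these ratios known, so nothing is read from the kept signs. With replicate 1 turned, the list medians were -0.057 for endothelial identity, 0.12 for microglia and macrophages and -0.038 for meninges and fibroblasts. With it as deposited they were -0.049 for blood progenitor and red cell genes and 0.12 for microglia and macrophages. Leaving out a replicate gave -0.095 to -0.061 for endothelial identity, -0.12 to 0.032 for blood and haemangioblast transcription factors, -0.052 to 0.0015 for blood progenitor and red cell genes, -0.42 to -0.11 for SOX factors, -0.20 to -0.17 for ETS factors and 0.15 to 0.32 for microglia and macrophages. Of 98 list medians under alternatives, 93 kept their sign, and the cause of the moves was not tested. Signal over background is unknown, so that dim probes could not be left out. No paired analysis was possible because each array holds a single null sample beside the shared pool.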
